A study of Bos indicus with 11 samples.

Results

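Collagen genes were examined in endometrial biopsies of multiparous Nelore cows (Bos indicus), collected on day 6 after AI from the uterine horn on the other side from the corpus luteum. A collagen gene was taken as any row whose symbol has the form COL, a type number, A and a chain number, and 35 of the 24616 genes in the table met this rule. Some collagen genes, among them COL5A1, COL5A3 and COL14A1, had no row under their symbol, so shares and counts cover only these 35. Of these, 29 had a mean of at least 5 normalized counts over the 11 cows and were tested. The cows were synchronized and inseminated alike, and were allocated only afterwards, by pregnancy diagnosis on day 30, to the pregnant group (P, n = 6) or the non-pregnant group (NP, n = 5). Each cow gave 1 library from 1 whole-tissue biopsy, so that a lower level from fewer cells of a type and from less RNA per cell cannot be told apart.

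Collagens are the main structural proteins of the extracellular matrix. Their chains wind into triple helices, which are then built into different structures: the fibrillar collagens form the tensile fibres of the stroma, type IV collagen forms the sheet-like network of basement membranes under epithelium and around vessels and muscle cells, and anchoring fibrils tie epithelial basement membranes to the stroma beneath. The remaining collagens coat fibrils, form beaded filaments or short-chain networks, or span the cell membrane. The endometrial stroma is remodelled through the estrous cycle, and in cattle the early embryo reaches the uterus at about the stage of these biopsies.

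The unit is the normalized count, which is the number of reads on a gene divided by a size factor per cow. It is not corrected for transcript length, so values are compared between cows and not between genes. P cows had 9290949 to 13508711 reads on genes and NP cows 9783673 to 13569085. Log2 fold changes (log2FC) are NP minus P on the scale of log2(normalized count + 1), tested with limma and adjusted with the Benjamini-Hochberg method over all 15081 genes with a mean of at least 5. P617 and, less so, P1541 stood apart from the other cows on the first principal component of all genes tested (46.6% of the variance, with scores of 166.4 and 59.1 against −43.3 to 8.6 in the other cows). A supplement of the study names P617 as non-pregnant. Its sample label was followed. For the collagen genes on which these cows bear most, values without both are given beside those with all cows.

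Reads on collagen genes made up a larger share of the library in most NP cows than in most P cows. The share was 1.404% in P1631, 1.48% in P2396, 1.94% in P1753, 2.14% in P904, 3.17% in P617 and 3.73% in P1541. It was 2.72% in NP2541, 3.07% in NP856, 3.36% in NP238, 3.46% in NP638 and 3.46% in NP2810. The groups overlapped only through P617 and P1541, since the other 4 P cows lay below every NP cow. COL1A1, COL1A2 and COL3A1, the chains of collagens I and III, supplied 51.9% of the collagen reads in P617, the lowest share, and 73.9% in NP238, the highest.

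**Figure D1:**
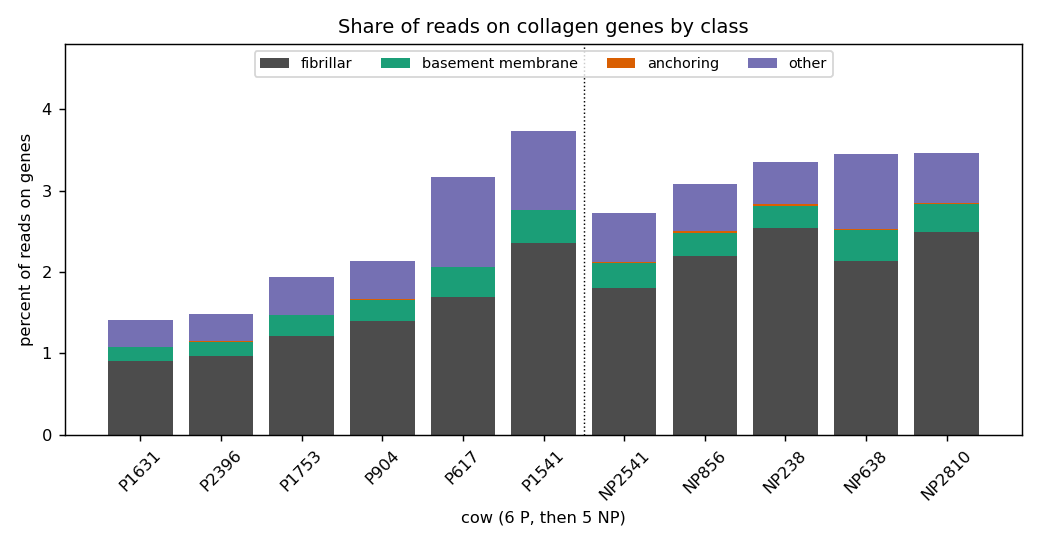
Percent of all reads on genes that fell on collagen genes in each of the 11 cows, stacked by class; each bar is 1 cow, ordered within its group. P1631, P2396, P1753 and P904 lie between 1.404% and 2.14%, the 5 NP cows between 2.72% and 3.46%, and P617 and P1541 at 3.17% and 3.73%.

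None of the 29 collagen genes had an adjusted p under 0.1 in limma, and none of the 15081 genes did (0.0%). At an unadjusted p under 0.05, 6 collagen genes (20.7%) were higher in NP cows, namely COL6A6, COL7A1, COL2A1, COL18A1, COL5A2 and COL9A3, beside 5.49% of all genes tested. None was higher in P cows, beside 2.35% of all genes. COL6A6 passed the filter on low values only through the NP cows, so that it could enter these counts only by differing. In DESeq2 on the recovered reads, 2 of the 29 (6.9%), COL6A6 and COL7A1, had an adjusted p under 0.1, beside 1.34% of the genes for which DESeq2 gave an adjusted p.

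Of the 29 collagen genes, 24 (82.8%) had a positive log2FC beside 50.2% of all genes, but with DESeq2, which fits the reads themselves, 19 of 29 (65.5%) did beside 43.8% of all genes. With DESeq2, 8 were past an unadjusted p of 0.05 and higher in NP cows, beside 5.63% of all genes, and 2 (6.9%), COL4A5 and COL4A6, were higher in P cows, beside 4.12%. COL6A6 is among the 8, with the limit of its filter. The median log2FC of the 29 was 0.34 in limma, beside 0.00 over all genes tested. By class, it was 0.53 for the 8 fibrillar genes (7 higher in NP cows), 0.31 for the 8 basement membrane genes (6 higher) and 0.31 for the 12 other collagens (10 higher). With DESeq2 these medians were 0.54 (7 of 8 higher), 0.23 (5 of 8) and 0.01 (6 of 12), beside −0.04 over all genes. The median of the other collagens then lay close to that of all genes. In limma, the median of the other collagens was 0.13 without P2396, and that of the basement membrane genes was 0.18 without P1631. All were measured in the same biopsies, so these counts are descriptions and the genes are not independent observations.

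**Figure D2:**
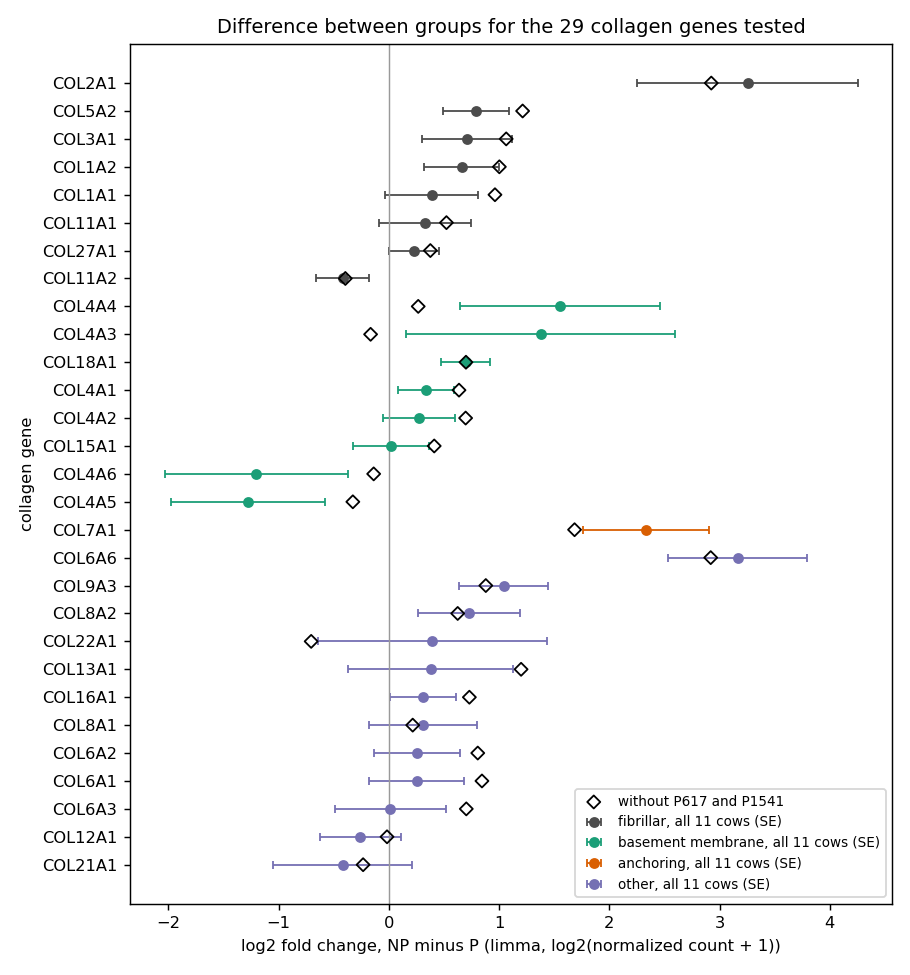
Log2 fold change, NP minus P, of each of the 29 collagen genes tested, grouped by class; filled points with bars are the limma estimate and its standard error over all 11 cows, and open diamonds the estimate without P617 and P1541. COL2A1, COL6A6 and COL7A1 lie farthest to the right (3.25, 3.16 and 2.33) and COL4A5 and COL4A6 farthest to the left (−1.27 and −1.20), where the diamonds lie nearer to 0.

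Among the fibrillar collagens, COL5A2 and COL2A1 were past an unadjusted p of 0.05. COL5A2 (ENSBTAG00000027020), a chain of collagen V, which is built into collagen I fibrils and limits their width, had 1692 normalized counts in P1631, 1860 in P2396, 2464 in P904, 2726 in P1753, 4802 in P1541 and 5600 in P617. The NP cows had 3968 in NP2541, 5016 in NP638, 5193 in NP2810, 5408 in NP238 and 5463 in NP856. P617 was the highest of all 11 cows and P1541 lay inside the NP range, while the other 4 P cows were below every NP cow. The means were 5010 ± 609 (SD, n = 5) in NP and 3191 ± 1622 (SD, n = 6) in P cows. The log2FC was 0.79 with a standard error (SE) of 0.30 (limma, unadjusted p = 0.0222, adjusted p = 0.515).

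Without P617 and P1541, the log2FC of COL5A2 was 1.21 and its limma adjusted p was 0.0859. It was then the only collagen gene past 0.1, beside 0.113% of all genes tested. With NP638 left out as well, the log2FC was 1.21. No collagen gene then had an adjusted p under 0.1 (lowest 0.147 in limma), and none of the 15081 genes tested did. P617 and P1541 were also the cows with the highest smooth muscle marker levels, as given further on.

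COL2A1 (ENSBTAG00000013155), the chain of the main collagen of cartilage, had 5.65 normalized counts in P617, 5.71 in P1631, 32.4 in P2396, 75.5 in P1753, 99.7 in P1541 and 402 in P904. The NP cows had 166 in NP638, 296 in NP856, 349 in NP2541, 448 in NP238 and 1148 in NP2810. All P cows but P904 lay below every NP cow, and P904 was inside the NP range. The log2FC was 3.25 (SE 1.00, limma, unadjusted p = 0.00721, adjusted p = 0.400). Without P904, the P cow inside the NP range, it was 3.92 and the limma adjusted p was 0.0826. Leaving out the highest P cow could only raise the log2FC, so this p is a description and supports nothing. The value of 3.92 was the highest log2FC of COL2A1 on leaving out a single cow, and the lowest was 2.73, without P617. With P617 counted as NP, the log2FC was 1.75 (limma, unadjusted p = 0.199). Collagen genes with a limma adjusted p under 0.1 without P904 were COL2A1, COL6A6 and COL7A1, beside 1.13% of all genes. COL6A6 is counted here with the limit of its filter.

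COL3A1 and COL1A2 had the highest mean counts of the fibrillar class. COL3A1 (ENSBTAG00000021466), the chain of collagen III, had 42597 normalized counts in P1631, 47091 in P2396, 65643 in P1753, 82044 in P904, 116058 in P617 and 122704 in P1541. In NP cows it had 94855 in NP2541, 107236 in NP638, 118711 in NP856, 138952 in NP238 and 148228 in NP2810. P617 and P1541 again lay among the NP cows and the other 4 P cows below all of them, and the log2FC was 0.71 (SE 0.41, limma, unadjusted p = 0.108, adjusted p = 0.738).

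COL1A2 (ENSBTAG00000013472), a chain of collagen I, had 29136 in P1631, 31817 in P2396, 36058 in P1753, 40507 in P904, 56240 in P617 and 86040 in P1541. In NP cows COL1A2 ranged from 54754 in NP2541 through 62389 in NP856, 70657 in NP638 and 76574 in NP2810 to 80762 in NP238. P1541 was above every NP cow and P617 between the lowest NP cows, and the log2FC was 0.66 (SE 0.34, limma, unadjusted p = 0.0757, adjusted p = 0.692), or 1.00 without P617 and P1541. COL1A1, the partner chain of collagen I, had P1541 at 93377 and P617 at 63342 above all 5 NP cows (37760 to 57989) and the other P cows below them (20567 to 28827).

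The remaining fibrillar genes were not past an unadjusted p of 0.05. COL11A1, a minor fibrillar chain, had a log2FC of 0.33 (limma, unadjusted p = 0.451) and COL27A1 of 0.23 (unadjusted p = 0.343). COL11A2 was the only fibrillar gene with a negative log2FC, −0.42 (unadjusted p = 0.110). COL24A1 had a mean of 0.180 normalized counts and was not tested.

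In the basement membrane class, COL18A1 was past an unadjusted p of 0.05. COL18A1 (ENSBTAG00000023907), the chain of collagen XVIII, a basement membrane proteoglycan and the source of the fragment endostatin, had 3220 normalized counts in P2396, 3295 in P617, 3815 in P1631, 5764 in P1753, 6610 in P1541 and 6625 in P904. The NP cows had 6800 in NP856, 6982 in NP238, 7646 in NP638, 8235 in NP2541 and 8257 in NP2810. Every NP cow was above every P cow, though the highest P cows lay close to the lowest NP cow. The means were 7584 ± 681 (SD, n = 5) in NP and 4888 ± 1626 (SD, n = 6) in P cows, and the log2FC was 0.70 (SE 0.22, limma, unadjusted p = 0.00844, adjusted p = 0.416).

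COL18A1 was 1 of 2 collagen genes (6.9%) with every NP cow above every P cow, beside 0.855% of all genes. The other was COL6A6, which entered the 29 only through its NP values, so that this count is a description and supports nothing. No collagen gene had every P cow above every NP cow. Without P617 and P1541 the log2FC of COL18A1 was 0.70, the same to 2 decimals, since P617 was among the lowest and P1541 among the highest P cows for this gene.

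COL4A1 and COL4A2 encode the chains of the common type IV network. COL4A1 (ENSBTAG00000012849) had 5618 normalized counts in P2396, 5832 in P1631, 7464 in P1753, 8202 in P904, 11831 in P617 and 13108 in P1541, against 8810 in NP2541, 8970 in NP856, 9101 in NP238, 12055 in NP638 and 14081 in NP2810. The groups overlapped through P617 and P1541 only, and the log2FC was 0.34 (SE 0.25, limma, unadjusted p = 0.205, adjusted p = 0.796). COL4A2 had a log2FC of 0.28 (unadjusted p = 0.417). Without P617 and P1541 the values were 0.64 for COL4A1 and 0.70 for COL4A2. COL15A1, a relative of COL18A1 found at the junction of basement membrane and stroma, had a log2FC of 0.02 (unadjusted p = 0.959), with P1541 far above all other cows at 12768 against 2572 to 6660.

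The other type IV chains split into pairs that behaved differently in P617 and P1541. COL4A5 and COL4A6, which form the type IV network known from smooth muscle and some epithelia, had the lowest log2FC of all collagen genes, −1.27 (SE 0.70, limma, unadjusted p = 0.0937) and −1.20 (SE 0.83, unadjusted p = 0.174). COL4A5 had 13484 normalized counts in P617, 8477 in P1541, 3302 in NP638 and 607 to 2423 in the other 8 cows. COL4A6 had 8592 in P617, 2649 in P1541, 1636 in NP638 and 191 to 777 in the others. The same 3 cows were thus highest for both genes. COL4A3 and COL4A4, chains of the network best known from kidney and lung, were lowest in P617 (4.52 and 15.8), and in COL4A4 next lowest in P1541 (110), against 63.2 to 1142 and 367 to 1337 across NP cows. Their log2FC of 1.38 and 1.55 (limma, unadjusted p = 0.280 and 0.113) became −0.17 and 0.27 without P617 and P1541.

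COL7A1 (ENSBTAG00000019081), the chain of the anchoring fibrils, was the only tested gene of its class. It had 96.0 normalized counts in P617, 208 in P1541, 231 in P1631, 427 in P2396, 717 in P1753 and 1271 in P904. The NP cows had 1049 in NP2541, 1301 in NP638, 2098 in NP2810, 2291 in NP856 and 2599 in NP238. All NP cows except NP2541 were above all P cows, and P904 was the only P cow inside the NP range. The log2FC was 2.33 (SE 0.57, limma, unadjusted p = 0.00163, adjusted p = 0.264), and the adjusted p in DESeq2 was 0.0593.

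Without P904, the limma adjusted p of COL7A1 was 0.0470. P904 was the highest P cow for this gene, so leaving it out could only raise the log2FC, and this p supports nothing. Without P617 and P1541, the lowest P cows for COL7A1, its log2FC was 1.69 with a limma adjusted p of 0.207. With P617 counted as NP, the log2FC was 1.27 and no longer past an unadjusted p of 0.05. COL17A1, which encodes the hemidesmosome collagen that links epithelial cells to their basement membrane, had a mean of 2.70 normalized counts, from 0 to 5.75, and was not tested.

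**Figure D3:**
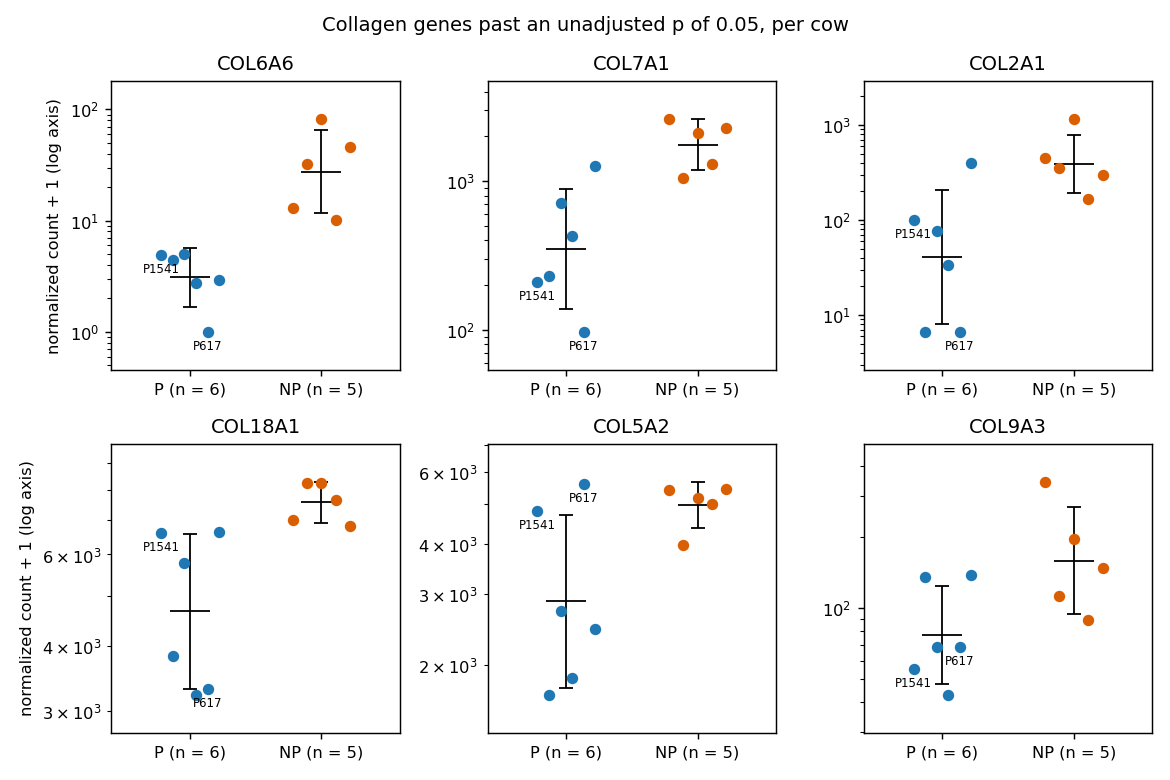
Normalized count + 1 on a log axis for the 6 collagen genes past an unadjusted p of 0.05, with 1 point per cow (6 P, 5 NP); the horizontal line and bars are the mean and SD on the log2 scale. The groups do not overlap for COL6A6 and COL18A1, and P617 and P1541 lie at the top of the P cows for COL5A2 and at the bottom for COL7A1.

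Among the other collagens, COL6A6 (ENSBTAG00000012837), a chain of the collagen VI family, had the smallest p of all members. It passed the filter on low values only through the NP cows, so its rank and its p are descriptions and support nothing. It had 0 normalized counts in P617, 1.75 in P2396, 1.92 in P904, 3.43 in P1631, 3.87 in P1541 and 4.03 in P1753, which are 0 to 4 reads. The NP cows had 9.13 in NP638, 12.1 in NP238, 31.4 in NP2541, 45.2 in NP856 and 80.5 in NP2810, which are 9 to 79 reads. The groups did not overlap, but the NP cows differed among themselves by more than the gap between the groups. The log2FC was 3.16 (SE 0.63, limma, unadjusted p = 3.15e-04, adjusted p = 0.238; DESeq2, adjusted p = 2.9e-04), and reads shared with related collagen VI chains could not be separated. With so few reads in P cows the size of this value depends on the pseudocount, and it was 3.47 with a pseudocount of 0.5 and 1.81 with 8.

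COL9A3 (ENSBTAG00000015581), a chain of collagen IX, which coats fibrils, had 42.0 normalized counts in P2396, 54.2 in P1541, 67.4 in P1753, 67.8 in P617, 135 in P1631 and 138 in P904. The NP cows had 88.3 in NP638, 112 in NP2541, 147 in NP856, 196 in NP2810 and 342 in NP238. P1631 and P904 lay inside the NP range, and NP238 was well above all other cows. The log2FC was 1.04 (SE 0.40, limma, unadjusted p = 0.0245, adjusted p = 0.528). Without NP238 it was 0.76 and no longer past an unadjusted p of 0.05, and the same loss followed without NP2810 (0.96), without P1541 (0.95), without P2396 (0.87) and without both P617 and P1541 (0.88, limma, unadjusted p = 0.0805).

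COL6A1, COL6A2 and COL6A3 encode the main chains of collagen VI, the beaded filament collagen around stromal and muscle cells, and COL6A1 and COL6A3 had the highest mean counts of the class. COL6A1 (ENSBTAG00000011802) had 11512 normalized counts in P1631, 12065 in P2396, 17689 in P904, 18845 in P1753, 41037 in P1541 and 61549 in P617, against 22956 in NP238, 23832 in NP2541, 24314 in NP856, 26410 in NP2810 and 36187 in NP638. P617 and P1541 were above, and the other P cows below, every NP cow. COL6A3 (ENSBTAG00000030190) had 9454 in P1631, 11629 in P2396, 12741 in P1753, 16417 in P904, 44616 in P1541 and 59557 in P617, against 14972 in NP238, 15585 in NP856, 17633 in NP2541, 20536 in NP2810 and 38375 in NP638.

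For COL6A3, too, P617 and P1541 were the highest cows and NP638 the highest NP cow, while P904 lay inside the NP range. The log2FC of COL6A1, COL6A2 and COL6A3 was 0.25, 0.26 and 0.02 (limma, unadjusted p = 0.567, 0.521 and 0.977). These 3 genes took 33.0% of the collagen reads in P617, 23.9% in NP638, 22.6% in P1541 and 13.7% to 19.99% in the other cows.

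Of the remaining genes in the class, COL16A1, which associates with fibrils, had a log2FC of 0.31 (limma, unadjusted p = 0.323), or 0.73 without P617 and P1541, and its row also carries another, uncharacterised symbol. COL8A1 and COL8A2, the short-chain collagens of vessel walls, had 0.31 and 0.73 (unadjusted p = 0.538 and 0.144). COL12A1, a collagen on the surface of collagen I fibrils, had −0.26 (unadjusted p = 0.498). COL13A1, a membrane-spanning collagen, had 0.38 (unadjusted p = 0.622), COL22A1 0.40 (unadjusted p = 0.711) and COL21A1 −0.42 (unadjusted p = 0.520). COL20A1, COL10A1 and COL25A1 had means of 1.27, 0.425 and 0.973 normalized counts and COL9A1 had 0 reads in every cow, and these 4 were not tested.

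The smooth muscle markers moved with several collagens across cows, so their levels are given here. The 12 listed markers were measured as 11 genes, since ACTA2 and ACTG2 share 1 row of the table. Of these, 1 had a positive log2FC, beside 50.2% of all genes. At an unadjusted p under 0.05, 2 were higher in P cows, beside 2.35% of all genes, and none was higher in NP cows. The median log2FC of these markers was −1.28, or −0.67 without P617 and P1541. Their summed level was 675639 normalized counts in P617, 510547 in P1541 and 291039 in NP638, against 43385 to 206268 in the other 8 cows. These 3 cows are the same that were highest for COL4A5, COL4A6, COL6A1 and COL6A3. The part of smooth muscle in the collagen results was not tested. The markers were themselves mostly lower in NP cows, so smooth muscle content and pregnancy outcome cannot be told apart in the fits that follow.

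**Figure D4:**
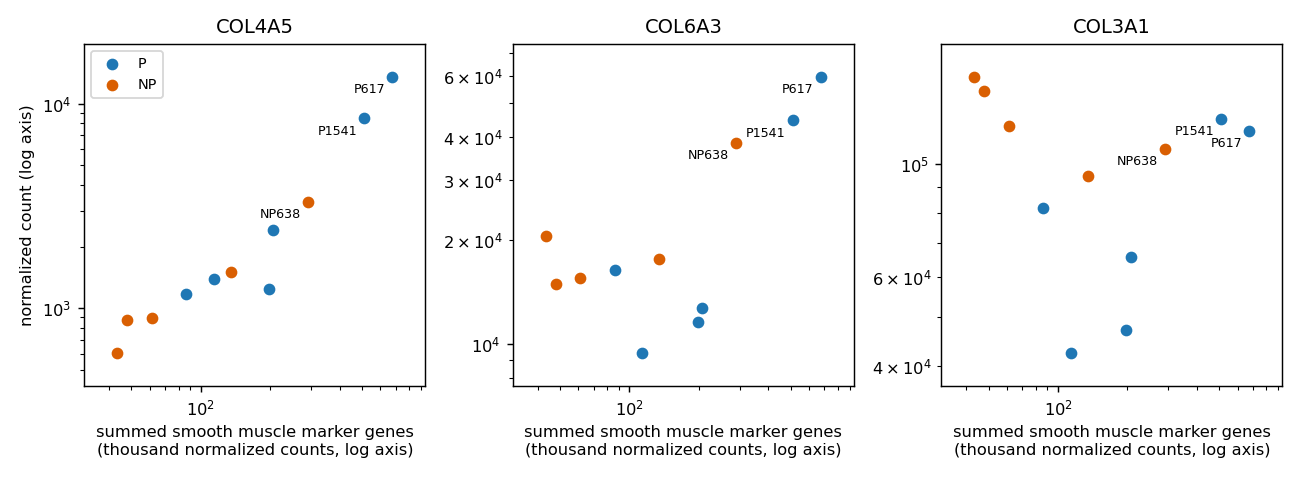
Normalized counts of COL4A5, COL6A3 and COL3A1 in each cow (log axes) against the summed normalized counts of 11 smooth muscle marker genes; blue points are P and orange points NP cows. P617, P1541 and NP638 hold the highest muscle marker sums and the highest COL4A5 and COL6A3, whereas for COL3A1 NP2810 and NP238, with low marker sums, are the highest cows.

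Without P617 and P1541, the remaining 4 P cows were compared with the 5 NP cows. At an unadjusted p under 0.05, 14 of the 29 collagen genes (48.3%) were then higher in NP cows, beside 7.14% of all genes, and none was higher in P cows, beside 4.01%. COL6A6 is among the 14, with the limit of its filter. Every NP cow was above every P cow for 10 collagen genes (34.5%), beside 2.49% of all genes, and they were COL18A1, COL4A1, COL4A2, COL1A1, COL1A2, COL3A1, COL5A2, COL16A1, COL6A1 and COL6A6, the last again with the limit of its filter. The median log2FC of the 29 was 0.70, beside −0.02 over all genes. The log2FC of COL1A1 went from 0.39 to 0.96, of COL3A1 from 0.71 to 1.06, of COL6A1 from 0.25 to 0.84, of COL6A2 from 0.26 to 0.81 and of COL6A3 from 0.02 to 0.70. That of COL4A5 went from −1.27 to −0.33. Both cows left out were P cows, and they were chosen because they stood apart in the expression of all genes, collagens included.

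With all 11 cows and the mean log2 level of the smooth muscle markers as a covariate, 9 of the 29 collagen genes (31.0%) were higher in NP cows at an unadjusted p under 0.05, beside 3.57% of all genes. COL6A6 is among the 9, with the limit of its filter. None of the 29 had an adjusted p under 0.1 in that fit, nor did any other gene (0.0%). The median log2FC of the 29 was 0.57, beside −0.01 over all genes, and 27 of the 29 were positive. COL4A5 had a log2FC of 0.05 and COL4A6 of 0.30 in that fit. COL5A2 had 1.08 (limma, unadjusted p = 0.00644) and COL7A1 1.499 (limma, unadjusted p = 0.0141), while COL2A1 and COL9A3, at 2.42 and 0.39, were no longer past an unadjusted p of 0.05.

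The other marker lists also differed among cows. The sum of the 14 epithelial markers was lowest in P617 (3166) and ranged up to 31837 in P1631, with 14110 to 20256 in NP cows. Of the 14, 11 had a positive log2FC, beside 50.2% of all genes. At an unadjusted p under 0.05, none was higher in NP cows, beside 5.49% of all genes. KRT7 alone was higher in P cows, beside 2.35%. The median log2FC of these markers was 0.27, or −0.485 without P617 and P1541. With the epithelial markers as a covariate, COL6A6, COL5A2 and COL7A1 had limma adjusted p of 0.0802, 0.0802 and 0.0898, beside 0.902% of all genes with an adjusted p under 0.1. For COL6A6 the limit of its filter holds here too. Stromal fibroblast markers other than collagens (9 of 10 tested, 8 higher in NP cows, 3 of them at an unadjusted p under 0.05) summed to 36815 to 79166 in P and 73762 to 93547 in NP cows. Over all genes tested, 50.2% had a positive log2FC and 5.49% were higher in NP cows at that p.

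Of 8 endothelial markers all 8 had a positive log2FC, 7 of them at an unadjusted p under 0.05, with sums of 4006 to 12470 in P and 7715 to 13839 in NP cows. The shares over all genes tested were again 50.2% and 5.49%, and they also stand beside the pericyte and immune lists. All 6 pericyte markers tested were higher in NP cows, 3 at an unadjusted p under 0.05, with sums of 3956 to 8357 in P and 7566 to 9242 in NP cows. All 9 immune markers tested were higher, 4 at an unadjusted p under 0.05, with sums of 465 to 1074 in P and 794 to 1659 in NP cows. No marker among these lists was at 0 over all cows, and the part of these cell types in the collagen results was not tested.

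For COL6A1 and COL6A2, and for COL4A1 and COL4A2, the ratio of the partner chains within a cow varied less than their levels did between cows. The ratio of COL6A1 to COL6A2 was 1.6 to 2.12 in P cows and 1.61 to 2.06 in NP cows, although the levels of COL6A1 spanned 11512 to 61549. The ratio of COL4A1 to COL4A2 was 1.15 to 1.76 in P and 1.15 to 1.86 in NP cows. The ratio of COL1A1 to COL1A2 was 1.13 in P617 and 1.09 in P1541, above the 0.561 to 0.821 of the other 9 cows. COL4A3 to COL4A4 was 0.174 in NP2810, the lowest of all cows. These ratios are of counts that are not corrected for length, so their size is not the ratio of chains made.

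For 9 chain ratios compared, no exact permutation p was under 0.05 (462 splits of the cows, two-sided, so that p could not be smaller than 0.00216). The smallest p was that of COL15A1 to COL18A1, where the log2 ratio was 0.68 lower in NP cows, with a mean of −0.48 against 0.20 (exact permutation p = 0.0693, 0.516 after adjustment over the 9 pairs). P617 and P1541 had ratios of 2.02 and 1.93, the other P cows 0.674 to 1.16 and the NP cows 0.551 to 0.866. In all, 5 pairs of collagen genes, COL6A1 and COL6A2, COL4A1 and COL4A2, COL5A2 and COL3A1, COL4A4 and COL4A3, and COL4A6 and COL4A5, are next to each other in the RefSeq annotation of another bovine assembly, in which 33 of the 35 have an entry.

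**Figure D5:**
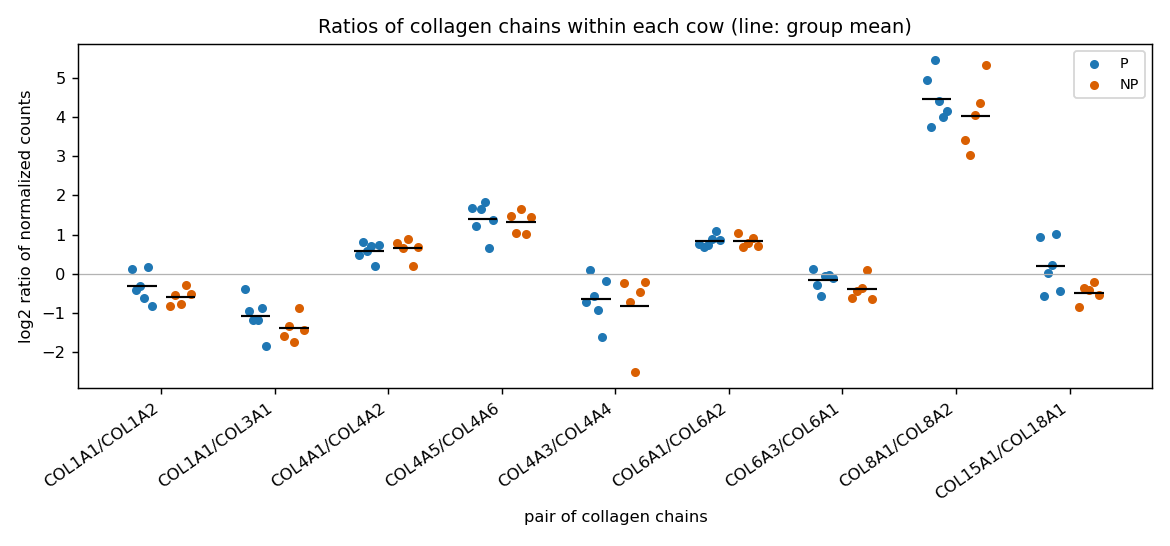
Log2 ratio of normalized counts for 9 pairs of collagen chains, with 1 point per cow (blue P, orange NP) and a line at each group mean. The groups overlap in every pair, and the ratios of COL6A1 to COL6A2 lie closest together.

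Genes that process collagen were examined as 4 lists of 46 genes, of which 40 were tested. Of these, 25 (62.5%) had a positive log2FC, beside 50.2% of all genes, and 21 (52.5%) with DESeq2, beside 43.8%. At an unadjusted p under 0.05, 8 of the 40 were higher in NP cows, beside 5.49% of all genes, none was higher in P cows, and none had an adjusted p under 0.1 in limma. The median log2FC was 0.13, beside 0.00 over all genes. Without P617 and P1541, 17 of the 40 (42.5%) were higher in NP cows at an unadjusted p under 0.05, beside 7.14% of all genes, and 2 in P cows, beside 4.01%. These 2 were CTAGE5 and ADAMTS14, named after their values were seen. Without NP856, 4 of the 40 were past that p, all higher in NP cows. Over all genes, 4.39% were then higher in NP cows at that p, against 5.49% with all cows.

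Chains are hydroxylated, glycosylated and folded in the endoplasmic reticulum, and 2 of the 16 genes tested for these steps were past an unadjusted p of 0.05. P4HA3, a catalytic subunit of prolyl 4-hydroxylase, had 343 to 2440 normalized counts in P and 1738 to 3800 in NP cows (log2FC 1.505, limma adjusted p = 0.335). COLGALT2, which adds galactose to hydroxylysine, had a log2FC of 1.24 (limma adjusted p = 0.589), or 0.56 without P617 and P1541, no longer past an unadjusted p of 0.05. P4HB, the other subunit of the prolyl hydroxylase and the gene of highest mean, had −0.28 (limma adjusted p = 0.741). SERPINH1, the collagen chaperone HSP47, was highest in P617 and P1541, at 21739 and 16755 against 3772 to 9883 in the other cows, and was named after its values were seen.

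In export and removal of propeptides, ADAMTS2, the procollagen N-proteinase, and PCOLCE2, an enhancer of the C-proteinase, were past an unadjusted p of 0.05 among 10 genes tested, with log2FC of 0.77 and 1.505 (limma adjusted p = 0.369 and 0.589). The value of PCOLCE2 was 0.93 without P617, 0.70 without P617 and P1541 and 0.20 with P617 counted as NP. MIA3, a receptor for procollagen at the exit sites of the endoplasmic reticulum and the gene of highest mean, had −0.09. In crosslinking, LOX, the lysyl oxidase, had a log2FC of 0.54 (limma adjusted p = 0.587) and was the only one of 5 genes past an unadjusted p of 0.05. LOXL1, its relative of highest mean, had 0.27.

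Among receptors and uptake, 3 of 9 genes tested were past an unadjusted p of 0.05. DDR2, a receptor tyrosine kinase for fibrillar collagen, had 315 to 481 normalized counts in P and 466 to 691 in NP cows (log2FC 0.56, limma adjusted p = 0.311, DESeq2 adjusted p = 0.0449). MRC2, an endocytic receptor that takes up collagen for degradation, had 714 to 1610 in P and 1740 to 2357 in NP cows without overlap (log2FC 0.78, limma adjusted p = 0.323, DESeq2 adjusted p = 0.0936). ITGA10, a collagen-binding integrin chain, had 0.77 (limma adjusted p = 0.564), and ITGB1, the common integrin partner and gene of highest mean, had −0.21.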

How the data were processed

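Per the labels, endometrial biopsies were sequenced as polyA-selected RNA. The authors cleaned read pairs with Seqyclean, aligned them to the masked UMD3.1 assembly with Bowtie2 2.1.0, counted them per gene with HTSeq 0.5.4p2 and normalized them with DESeq2 1.12.1 (versions also in the submitters' processing notes, beside CASAVA 1.8.2). The gene annotation and the use of strand are not given in the sources used here. The deposited values are a signal that is never negative, the count divided by a size factor per cow, and 100% of the values came out as whole reads (tolerance 0.001). The main test was limma 3.58.1 (R 4.3.3, eBayes with a trend) on log2(normalized count + 1) over 15081 genes with a mean of at least 5. It was also run on simulated data. These held no difference shared by many genes, such as that of P617 and P1541, so they do not show how the test performs here. Thresholds were an adjusted p of 0.1 and an unadjusted p of 0.05. DESeq2 1.42.0, edgeR 4.0.16 and voom on recovered reads, TMM, other filters (none, or a mean of 50) and pseudocounts (0.5, 8), marker covariates and left-out cows were alternatives. On the recovered reads DESeq2 called 201 genes and edgeR 0 (757 higher in NP and 394 in P cows at an unadjusted p under 0.05).

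Every collagen gene with a mean of at least 5 could be named with its level. Each cow is given for members with an unadjusted p under 0.05, members without overlap and the 2 of highest mean per class, and other lists by their genes past that p and the gene of highest mean. The members and lists were chosen with earlier results of these data known. Sequences and coordinates are not given here.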

Additional observations from a re-analysis of the deposited data

Results flagged for a closer look

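Of the 58 combinations of a collagen gene and a group, 2 had a cow farther from the others on the scale of log2(normalized count + 1) than Dixon's 95% criterion allows (gap over range 0.733 and 0.627, with limits of 0.71 for 5 and 0.625 for 6 cows), and chance marks about 1 in 20. COL5A2 in NP2541 was 3968 normalized counts, and the remaining 4 NP cows ranged from 5016 to 5463. COL6A6 in P617 was 0, and the remaining 5 P cows ranged from 1.75 to 4.03 normalized counts, which is a difference of a few reads.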

How the results depend on the processing

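The count of collagen genes with an adjusted p under 0.1, 0 in limma, was 2 with DESeq2, 3 with the epithelial score as a covariate, 1 without P617 and P1541 and 0 to 3 on leaving out single cows (3 without P904). COL6A6, which passed the filter only through the NP cows, is among those counted with DESeq2, with the epithelial score and without P904. For COL2A1 and COL7A1, P904 was the highest P cow, so that leaving it out could only raise their log2FC. The count at an unadjusted p under 0.05, 6 in limma, was 10 with DESeq2, 10 with the epithelial score and 14 without P617 and P1541. It was 17 without P617, P1541 and NP638 (15 higher in NP and 2 in P cows). With P617 counted as NP it was 2, of which 1 (3.45%) was higher in NP cows, beside 4.06% of all genes. The other was higher in P cows, beside 2.42% of all genes. The share of all genes past that p, 7.84% in limma, was 9.75%, 12.8%, 11.1%, 10.2% and 6.48% in these fits. For the processing genes the count of 8, all higher in NP cows, became 19 without P617 and P1541 (17 higher in NP and 2 in P cows). It was 16 without these and NP638 (14 higher in NP and 2 in P cows), and 4 to 10 when each cow was left out. The share of all genes past that p was 11.1%, 10.2% and 5.66% to 10.3% in these fits. The count was 4 without NP856, beside 5.66% of all genes. It was 5 without NP2810 or P2396, beside 7.56% and 7.74%. The cause of these shifts was not tested.

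The median log2FC of the collagen genes stayed positive in all 24 alternatives, from 0.19 with DESeq2 to 0.70 without P617 and P1541. For the 6 genes past an unadjusted p of 0.05, 131 of 143 alternatives kept direction and side of the threshold, and 12 lost the threshold without changing direction. Of the 12, 5 came from counting P617 as NP, which left COL5A2 at 1.01 and took COL6A6 to 2.04, COL2A1 to 1.75, COL18A1 to 0.40, COL9A3 to 0.81 and COL7A1 to 1.27. Of 144 alternatives for the chain ratios, 4 took a ratio past an unadjusted exact p of 0.05. No paired analysis was possible because the groups share no replicate numbers. A gene near the mean of 5 rests on a few reads per cow.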
